A study of Homo sapiens with 4 samples.

Results

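The genes described here encode the coats, tethers and sorting complexes of membrane traffic. They were chosen by symbol: VPS genes, TRAPPC genes, the SEC16, SEC22, SEC23, SEC24, SEC31, SEC61, SEC62 and SEC63 genes, COG1 to COG8, EXOC1 to EXOC8, the COP genes, and the B, D, G, M, S and Z subunits of the adaptor complexes AP-1 to AP-5. Of the 10147 genes in the table, 88 matched, all of them protein coding. Another 31 genes that the same symbols would cover, such as SEC31A, COPG1, AP1G1 and VPS39, were not analysed here. By textbook site of action 15 of the 88 were grouped at the endoplasmic reticulum (ER), 33 at the Golgi, 28 at endosomes, 8 at the plasma membrane and 4 elsewhere.

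The study used K562 cells, a human chronic myelogenous leukemia line that was genome edited so that IWS1, a transcription elongation factor, carries an N-terminal dTAG. The ligand dTAG7 brings the tagged protein to degradation. Tagged cells received 500 nM dTAG7 for 1 h (dIWS1) or the solvent DMSO (control), so that control cells carried the tag as well, and new RNA was then labelled with 500 µM 4-thiouridine for 5 min. RNA synthesis was read by TT-seq, which sequences the fragmented RNA made during such a pulse. The labels give 2 control and 2 dIWS1 libraries.

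Only 1 table, with the mean normalized count of each gene over the libraries, was used. Whole reads per gene were recovered from these means, and they resolved into 3 columns: 1 control column, which enters the mean 2 times, and 2 dIWS1 columns. The control was therefore counted once (n = 1, against n = 2), and no spread between control cultures enters any test below. The control column held 29697189 reads in genes, dIWS1 column 1 held 20599920 and the second dIWS1 column 20807156. Values were scaled with the spike-in size factors of the table, and a normalized read is a read divided by that factor. IWS1 itself was read at 3684 reads in the control column and 2334 and 2427 in the dIWS1 columns, which does not check the labels, because the degron acts on the protein. All 11 erythroid K562 markers looked for, such as GATA1, had reads, and none of 8 markers of other cell types was in the table.

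In the secretory route, COPII coats bud vesicles from the ER, where the Sec61 channel passes new proteins into the lumen, and COPI coats carry material back from the Golgi. Tethers such as TRAPP, COG, GARP and the exocyst catch incoming vesicles at the Golgi, the endosomes and the plasma membrane before fusion. On the endosomal side, ESCRT complexes sort membrane proteins into vesicles inside the endosome, retromer returns cargo, and CORVET and HOPS tether endosomes and lysosomes to each other. These are housekeeping functions, used in nearly all cells.

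Under the spike-in scaling, RNA synthesis of these genes was lower in dIWS1 than in control cells, to nearly the extent seen over all genes, whereas scaling by total reads in genes, which takes the common fall away, called 13 of the 88 lower and 13 higher, beside 1080 lower and 1475 higher of all 10134 genes. Both dIWS1 columns lay below the control column for 85 of the 88 genes, against 92.1% of all 10134 genes with reads. In limma's voom fit with the spike-in scaling, 59 of the 88 were lower at an adjusted p under 0.05, while 64.5% of all genes were. None was higher in that fit, at an unadjusted p under 0.05 or with limma-trend, and 0.109% of all genes were. The median log2 fold change of the 88 was −0.44, and that of all genes was −0.43 with quartiles at −0.60 and −0.26. Scaled by total reads, the median of all genes was 0.015. The standard error of a single gene's log2 fold change ran from 0.13 to 0.21 among the 88. It rests on a spread pooled over all genes, since each gene leaves 1 residual degree of freedom. The dIWS1 columns differed from each other by a shift common to most genes: column 2 stood above column 1 for 80 of the 88, by a median of 0.12 on the log2 scale.

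Because most genes were lower, a second fit placed the median gene at 0. Relative to it, COG3, TRAPPC12 and TRAPPC9 lay below (4.78% of all genes did) and SEC61G and TRAPPC6B above (3.01% of all genes did). The other 83 genes were not distinguishable from the median gene in that fit. These counts are no higher than the shares of all genes. With limma-trend SEC61G alone kept its call (adjusted p = 0.0490), and the adjusted p of the other 4 ran from 0.0785 to 0.122.

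The promoters of 4 of these 5 are shown, the genes at either end of the range that had a single promoter window. TRAPPC9, which had the lowest fold change, had no promoter window. Each line gives the 250 bases before the gene start in RefSeq on GRCh38.p14, read 5′ to 3′ on the strand of the gene. Capitals mark matches, on either strand, to the motifs listed after the sequences, and a line with no capitals holds no match.
COG3, chr13:45464689-45464938, plus strand: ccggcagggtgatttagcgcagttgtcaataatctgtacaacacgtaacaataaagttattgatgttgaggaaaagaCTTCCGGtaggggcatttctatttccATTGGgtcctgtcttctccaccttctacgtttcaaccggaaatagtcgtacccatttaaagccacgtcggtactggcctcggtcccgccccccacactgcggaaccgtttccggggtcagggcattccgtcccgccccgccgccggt
TRAPPC12, chr2:3379444-3379693, plus strand: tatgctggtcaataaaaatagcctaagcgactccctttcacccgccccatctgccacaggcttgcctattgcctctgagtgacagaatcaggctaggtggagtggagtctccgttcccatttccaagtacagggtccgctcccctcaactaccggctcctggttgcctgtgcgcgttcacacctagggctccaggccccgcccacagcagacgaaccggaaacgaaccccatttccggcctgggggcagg
TRAPPC6B, chr14:39170334-39170583, minus strand: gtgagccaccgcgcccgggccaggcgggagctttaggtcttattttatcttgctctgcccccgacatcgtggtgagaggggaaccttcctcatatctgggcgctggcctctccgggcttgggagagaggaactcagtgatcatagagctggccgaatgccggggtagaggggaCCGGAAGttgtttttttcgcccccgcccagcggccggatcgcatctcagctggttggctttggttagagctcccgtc
SEC61G, chr7:54759212-54759461, minus strand: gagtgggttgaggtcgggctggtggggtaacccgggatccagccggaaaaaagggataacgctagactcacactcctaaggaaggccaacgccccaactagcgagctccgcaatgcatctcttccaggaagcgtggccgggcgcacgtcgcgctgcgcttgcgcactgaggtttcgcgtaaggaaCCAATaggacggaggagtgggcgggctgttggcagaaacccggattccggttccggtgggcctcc

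The COG3 window holds a CCAAT box whose first base lies at −147 from the gene start and an ETS core at −173, both read on the opposite strand. An ETS core lies at −77 in the TRAPPC6B window and a CCAAT box at −65 in that of SEC61G, and no motif of the list is in the TRAPPC12 window. The GC content of the windows was 53.6% for COG3, 59.2% for TRAPPC12, 61.2% for TRAPPC6B and 62.4% for SEC61G. The motifs searched were the ETS core CCGGAAG, the CCAAT box CCAAT, the E-box CACGTG and the cyclic AMP response element TGACGTCA. The YY1 core AAGATGGC, the NRF1 core GCATGCGC and the ER stress element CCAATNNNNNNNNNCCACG, which contains a CCAAT box, were searched as well. The E-box is the core of the CLEAR element of lysosomal genes, and only this core was searched. Promoter windows here ran from 250 bases before to 50 after the start, and 93 windows were found for 70 of the 88 genes.

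The ETS core was in 36.6% of the 93 windows, in 18.9% of the windows of all genes in the table and in 10.3% of all 35116 human windows. By site it was in 18 of 37 Golgi, 8 of 24 endosome and 4 of 20 ER windows. The E-box was in 14.0% of the 93 windows, in 9.70% of those of all genes in the table and in 7.26% of all windows, and it was in 6 of 24 endosome windows. The CCAAT box was in 32.3% of the 93 windows and in 35.3% of those of all genes in the table. These shares were 5.38% and 5.55% for the YY1 core and 5.38% and 5.09% for the NRF1 core. For the cyclic AMP response element they were 4.30% and 3.10%. The ER stress element was in none of the 93 windows and in 0.077% of all windows. Alternative starts of 1 gene share bases, so these windows are not independent. With an ETS match the median log2 fold change was −0.45 over 30 genes, and without one it was −0.41 over 40. Over all genes in the table these medians were −0.42 with and −0.42 without a match. With an E-box the median was −0.47 over 12 genes (10 lower), and without one −0.41 over 58 (36 lower). Over all genes in the table these were −0.44 (70.3% lower) and −0.42 (65.7% lower). With a CCAAT box the median was −0.44 over 28 genes, and without one −0.41 over 42. The ETS core was common among these promoters, and the medians with and without it lay close together.

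**Figure D1:**
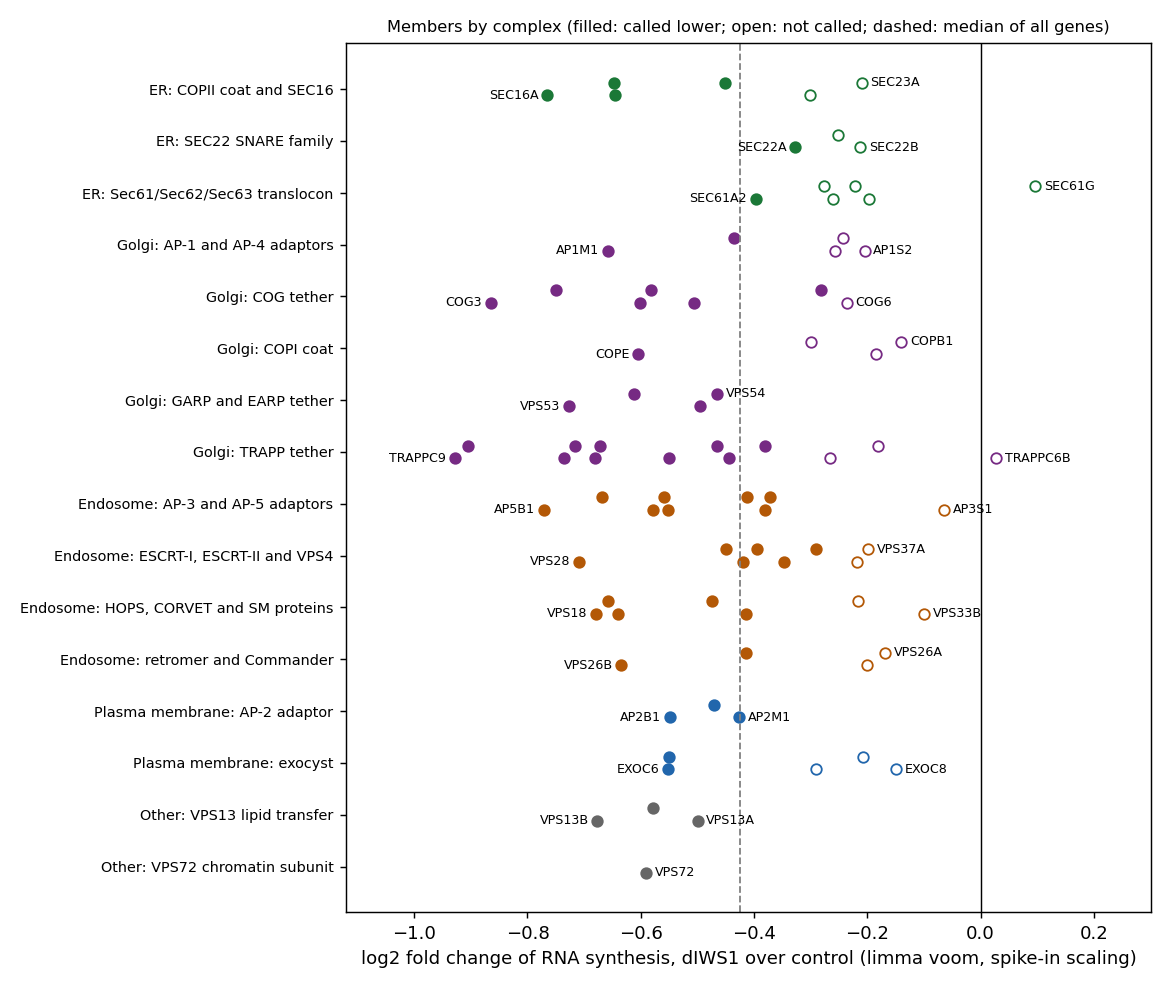
Log2 fold change of RNA synthesis (x axis, dIWS1 over control, limma voom with spike-in scaling) for the 88 genes, 1 point per gene, in 1 row per complex and coloured by site. Filled points were called lower and open points were not, the dashed line is the median of all genes at −0.43, and under this scaling only SEC61G at 0.10 and TRAPPC6B at 0.03 lie right of 0.

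Of the ER, Golgi and endosome genes, those of the ER had the median nearest to the control. Of the 15, 6 were lower (40.0%, beside 64.5% of all genes). The 15 had a median log2 fold change of −0.28 (0.17 when scaled by total reads) and quartiles at −0.42 and −0.22. A value above that of the median gene was found for 11 of the 15. With the control column entered 2 times, as in the deposited mean, 11 of the 15 were lower, beside 7883 of all 10134 genes. The medians differed by complex, but the values overlapped. The COPII genes with SEC16A ran from −0.76 to −0.21, and the translocon genes from −0.40 to 0.10. In the translocon, 1 of 6 genes was lower (median −0.24), among the SEC22 genes 1 of 3 (median −0.25), and in the COPII coat with its organizer SEC16A 4 of 6 (median −0.55).

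SEC61G, the small gamma subunit of the Sec61 channel, gave 492 reads in the control column and 500 and 496 in the dIWS1 columns, which have fewer reads in total. After scaling, both dIWS1 columns lay above the control, by 0.05 and 0.15 on the log2 scale. Its log2 fold change was 0.10 ± 0.13 (SE; adjusted p = 0.493), and relative to the median gene it was 0.52 higher (adjusted p = 0.00209). It was the only one of the 88 with both columns above the control. SEC61A1 and SEC61A2 encode alternative pore subunits. SEC61A1 had 1786 reads against 1375 and 1447 and SEC61A2 355 against 248 and 263, and both dIWS1 columns were below the control for each. The log2 fold changes were −0.26 for SEC61A1, which did not pass the test (adjusted p = 0.0927), and −0.40 for SEC61A2, which did (adjusted p = 0.00832). Their difference was 0.14, with 0.14 in column 1 and 0.13 in column 2 (standard error 0.20, combined as if the genes were independent). Per kilobase of gene span, the control level was 88.3 normalized reads for SEC61A1 and 8.72 for SEC61A2.

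Among the COPII genes, SEC16A, which marks the ER exit sites where coats assemble, had 3892 reads in the control and 2102 and 2234 in the dIWS1 columns. That is a log2 fold change of −0.76 ± 0.15 (SE; adjusted p = 3.29e-06), the lowest of the ER genes. The cargo-binding coat subunit SEC24A had 3839 reads against 2265 and 2377 (log2 fold change −0.65), and the outer coat subunit SEC31B had 493 against 314 and 283 (−0.65). The SEC24A paralog SEC24D had 1880 reads against 1423 and 1465 (log2 fold change −0.30, adjusted p = 0.0536). SEC23B, of the inner coat, was lower at −0.45, and its paralog SEC23A had −0.21 (adjusted p = 0.170). In all of these genes both dIWS1 columns lay below the control. Of the SEC22 genes, SEC22A was lower (−0.33), and SEC22B, the SNARE of ER and Golgi traffic, had −0.21 (adjusted p = 0.153).

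The Golgi genes held both the lowest and the second-highest values of the 88. Of 33, 23 were lower (69.7%, beside 64.5% of all genes). The 33 had a median log2 fold change of −0.50 and quartiles at −0.67 and −0.27, and the median was −0.054 when scaled by total reads. Among the tethers, 10 of 13 TRAPP genes (median −0.55), 6 of 7 COG genes (median −0.58) and 4 of 4 GARP and EARP genes (median −0.55) were lower. In the COPI coat 1 of 4 was lower (median −0.24), and among the AP-1 and AP-4 adaptors 2 of 5 (median −0.26). These counts are a description, since genes are not replicates and no test over genes was made.

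TRAPPC9, a subunit of the TRAPPII complex, gave 17058 reads in the control column and 8700 and 8270 in the dIWS1 columns, with ratios of −0.95 and −0.91 on the log2 scale. At −0.93 ± 0.14 (SE; adjusted p = 4.90e-09) it had the lowest log2 fold change of the 88, which left 52.5% of the control level. Its mean fitted 2 sets of whole reads, and the deposited log2 ratio was used to choose between them. TRAPPC12, of the TRAPPIII complex, had 5575 reads against 2965 and 2677 and a log2 fold change of −0.91 ± 0.15 (SE; adjusted p = 4.06e-08). The gene lies on chromosome 2 from 3379694 to 3479565. COG3, a subunit of lobe A of the COG tether, lies on chromosome 13 from 45464939 to 45536701 and had 2241 reads against 1148 and 1180. Its log2 fold change was −0.86 ± 0.14 (SE; adjusted p = 4.33e-08). Relative to the median gene the differences were −0.50 for TRAPPC9 (adjusted p = 0.0124), −0.48 for TRAPPC12 (adjusted p = 0.0239) and −0.44 for COG3 (adjusted p = 0.0331). For each of the 3, both dIWS1 columns were lower than 60% of the control.

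TRAPPC6B had the highest value of its complex. This core subunit, encoded on chromosome 14 from 39147814 to 39170333, had 910 reads in the control and 888 and 868 in the dIWS1 columns. The dIWS1 columns lay on either side of the control, at −0.01 and 0.07 on the log2 scale. The log2 fold change was 0.03 ± 0.13 (SE; adjusted p = 0.850), and 0.45 above the median gene (adjusted p = 0.0144). Its paralog TRAPPC6A, which can take its place in the core, had 243 reads against 139 and 141 and was lower at −0.72. TRAPPC6B exceeded TRAPPC6A by 0.74 in log2 fold change, with 0.77 in column 1 and 0.72 in column 2 (standard error of the difference 0.20). This was the widest gap of any paralog pair examined.

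In the COG tether, COG6 was the one gene that did not pass (1021 reads against 822 and 819, log2 fold change −0.24, adjusted p = 0.103). VPS53, shared by the GARP and EARP tethers, fell most in that complex, from 5140 reads to 2896 and 2981 (log2 fold change −0.73), and VPS54, found only in GARP, fell least (−0.47). COPE, the epsilon subunit, was the COPI gene called lower, with 1487 reads against 927 and 924 (log2 fold change −0.60, adjusted p = 6.75e-05). The beta and beta-prime subunits COPB1 and COPB2 had log2 fold changes of −0.14 and −0.18 and neither passed. AP1M1, the ubiquitous mu subunit of AP-1, fell from 1185 reads to 739 and 683 (−0.66), while the sigma subunit AP1S2 had 1069 reads against 930 and 829 and did not pass (−0.20, adjusted p = 0.160).

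**Figure D2:**
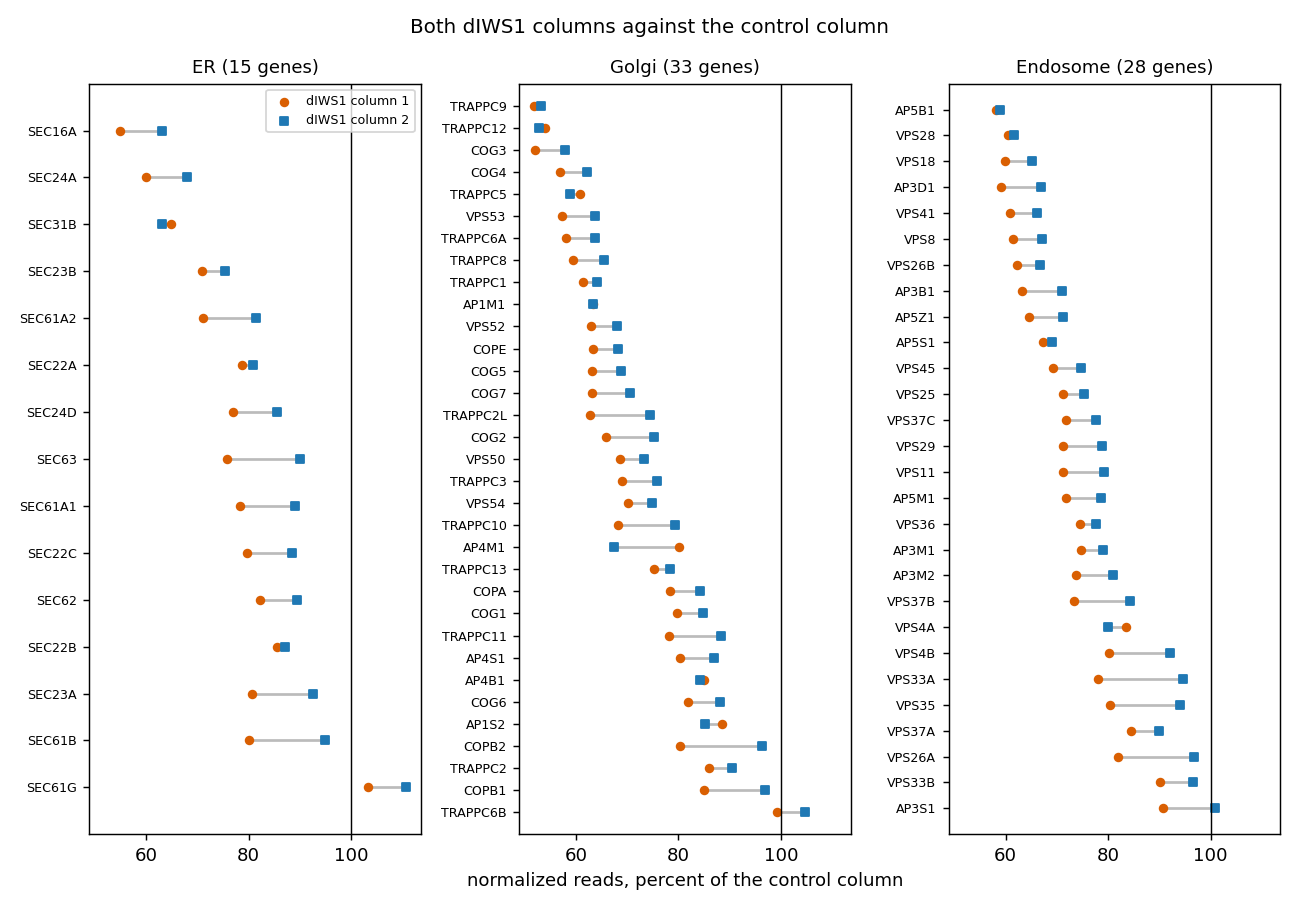
Normalized reads of each dIWS1 column as a percent of the control column (x axis, vertical line at 100) for the ER, Golgi and endosome genes, sorted by fold change, with circles for column 1 and squares for column 2. Column 2 lies to the right of column 1 for most genes, and SEC61G alone has both marks right of 100.

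The endosome genes lay at the level of all genes. Of 28, 21 were lower (75.0%, beside 64.5% of all genes). The median log2 fold change was −0.41 (0.027 when scaled by total reads) with quartiles at −0.59 and −0.27. In the limma voom fit relative to the median gene no endosome gene was called, and at an unadjusted p under 0.05 AP3S1 and VPS33B were above it and 1 gene was below, beside 1020 above and 1188 below over all 10134 genes. With limma-trend none was called either. By complex, 8 of 9 AP-3 and AP-5 genes were lower (median −0.55), 6 of 8 ESCRT-I, ESCRT-II and VPS4 genes (median −0.37), 5 of 7 HOPS, CORVET and SM genes (median −0.47) and 2 of 4 retromer genes (median −0.31).

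AP5B1, the beta subunit of the AP-5 adaptor, had the lowest value, with 332 reads in the control column and 190 and 178 in the dIWS1 columns (log2 fold change −0.77 ± 0.14 SE, adjusted p = 1.21e-06). The sigma subunit gene AP3S1 of the AP-3 adaptor, which carries cargo to lysosome-related organelles, had the highest. It gave 3332 reads against 2976 and 3058, so that column 1 lay 0.14 below the control and column 2 was level with it at 0.01 (log2 fold change −0.06, adjusted p = 0.701). The other AP-3 genes named here were lower: AP3B1, its large beta subunit, at −0.58, and the alternative mu subunits AP3M1 at −0.38 and AP3M2 at −0.37. The mu subunits differed by 0.01.

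In ESCRT-I, VPS28 fell from 242 reads to 144 and 136 (log2 fold change −0.71, adjusted p = 4.03e-05). The alternative subunits VPS37A, VPS37B and VPS37C had −0.20, −0.35 and −0.42, of which the last 2 passed. The ATPases VPS4A and VPS4B, which take ESCRT filaments apart, had −0.29 and −0.22, and only VPS4A passed (adjusted p = 0.0394 and 0.173). With limma-trend the calls of VPS4A, VPS37B and SEC22A were lost. The order of VPS4A and VPS4B is not settled by these libraries, because VPS4B was the lower one in column 1 and the higher one in column 2.

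VPS18, in the core that HOPS and CORVET share, fell from 187 reads to 110 and 111 (log2 fold change −0.68). The SM proteins VPS33A and VPS33B, which help SNAREs pair, stayed nearest to the control in that group. VPS33B had 783 reads against 694 and 689 (−0.10, adjusted p = 0.483) and VPS33A 1482 against 1138 and 1278 (−0.22, adjusted p = 0.153). Among the retromer genes VPS26B fell from 817 reads to 500 and 496 (−0.63, adjusted p = 9.33e-06). The paralog VPS26A, which fills the same position, had 3914 reads against 3151 and 3447 and did not pass (−0.17, adjusted p = 0.304). The difference was 0.47, with 0.40 in column 1 and 0.54 in column 2 (standard error 0.20).

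At the plasma membrane all 3 AP-2 genes matched by symbol were lower: AP2B1, the beta subunit of this clathrin adaptor, at −0.55, AP2S1 at −0.47 and AP2M1 at −0.43. In the exocyst, EXOC6 (−0.55) and EXOC3 (−0.55) were lower, and EXOC8 stood nearest to the control (271 reads against 229 and 234, log2 fold change −0.15, adjusted p = 0.343). The VPS13 proteins pass lipids between membranes at contact sites, and their genes are long. VPS13B fell from 37502 reads to 22339 and 22067 (log2 fold change −0.68), VPS13C from 9392 to 5990 and 5925 (−0.58) and VPS13A from 8004 to 5405 and 5312 (−0.50). VPS72 shares only the name with the rest: it is a histone-binding subunit of chromatin remodelling complexes. It fell from 642 reads to 408 and 399 (−0.59, adjusted p = 3.36e-05).

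Compared by site, the ER median lay 0.15 above the median gene on the log2 scale, the Golgi median 0.07 below it and the endosome median 0.01 above it. The ER, endosome and Golgi medians were −0.35, −0.48 and −0.55 in column 1 and −0.20, −0.36 and −0.42 in column 2, and both sets share the single control column. Values within each site nevertheless spread much wider than the medians differ. The ER ran from −0.76 to 0.10, the Golgi from −0.93 to 0.03 and the endosome from −0.77 to −0.06. Without the translocon, the 9 other ER genes had a median of −0.33, with 5 lower. The difference between sites was not tested, because genes are not replicates.

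Complex membership crossed the sites. The 29 tether genes of TRAPP, COG, GARP, EARP and the exocyst had a median log2 fold change of −0.55, with 22 lower (75.9%, beside 64.5% of all genes). Among these the exocyst had the highest median, −0.29, with 2 of 5 lower. Its values, from −0.55 to −0.15, lay within the TRAPP range of −0.93 to 0.03. The 9 coat genes of COPI and COPII, without SEC16A, had −0.30, with 4 lower. With SEC16A the 10 coat genes had −0.38, with 5 lower. The 17 genes of the 5 adaptor complexes had −0.44, with 13 lower.

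**Figure D3:**
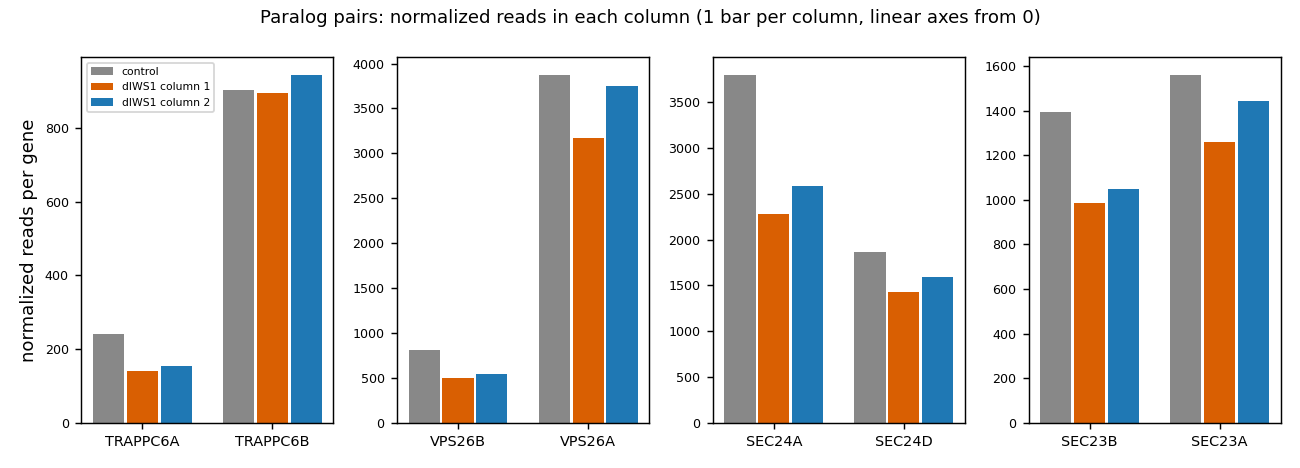
Normalized reads (y axes, linear and from 0, a separate scale for each panel) in the control column and both dIWS1 columns for 4 paralog pairs, 1 bar per column and no error bar because each bar is 1 column. TRAPPC6B and VPS26A stay nearer to their control bar than TRAPPC6A and VPS26B do.

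The gap between paralogs varied by pair. Besides TRAPPC6 and VPS26, SEC24D exceeded SEC24A by 0.35 (0.36 and 0.33 in the columns, standard error 0.21) and SEC23A exceeded SEC23B by 0.24 (0.19 and 0.29, standard error 0.20). The gap was 0.12 for VPS33B and VPS33A (0.21 and 0.03 in the columns, standard error 0.19). For VPS13A and VPS13B it was 0.18 (0.18 and 0.17, standard error 0.20). Each standard error was combined from those of both genes as if they were independent. Both were read in the same columns, so it does not measure the spread of a gap between columns. COPB1 and COPB2, separate subunits of the COPI coat rather than a paralog pair, differed by 0.04 (standard error 0.21). The differences were not tested, and only reads aligned to a single place were counted by the authors, so reads in stretches that paralogs share are missing for both.

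GC content and the fold change were negatively correlated. Among the 18 genes whose span had over 50% GC, 18 were lower, with a median log2 fold change of −0.63, as were 2429 of 3120 of all genes in that class (median −0.54). Between 45 and 50% it was 16 of 18 (median −0.52), beside 1207 of 1677 over all genes. Between 40 and 45% it was 6 of 15 (median −0.26), beside 1549 of 2662, and under 40% 19 of 37 (median −0.33), beside 1324 of 2627. Across the 88 genes Pearson's r between GC content and log2 fold change was −0.44 and Spearman's rho −0.41, and across 10086 genes r was −0.27 and rho −0.34. These correlations are across genes of the same libraries, which share depth and composition, and are given as a description. The GC classes also differed in gene length. Among the 88 the median span was 72.1 kb under 40% and 11.1 kb over 50%. Over all genes it was 57.5 and 10.3 kb. The part of length in the correlation with GC content was not tested.

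Within each site the class over 50% GC had the lowest median, but the classes below it did not fall steadily at the Golgi and endosomes. At the Golgi the median was −0.42 under 40% and −0.24 from 40 to 45%, where 0 of 5 were lower. Endosome medians were −0.39 under 40%, −0.38 from 40 to 45% and −0.42 from 45 to 50%. Genes over 50% GC were lower in 7 of 7 cases at the Golgi (median −0.66), 7 of 7 at endosomes (−0.67) and 1 of 1 at the ER, which is SEC16A. Of the 15 ER genes, 7 lay under 40% GC, of which 1 was lower, while at the Golgi 7 of 12 and at endosomes 6 of 11 such genes were lower. Median GC content was 41.9% for the ER, 43.4% for the Golgi and 42.9% for the endosome genes. The part of GC content in the difference between sites was not tested.

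**Figure D4:**
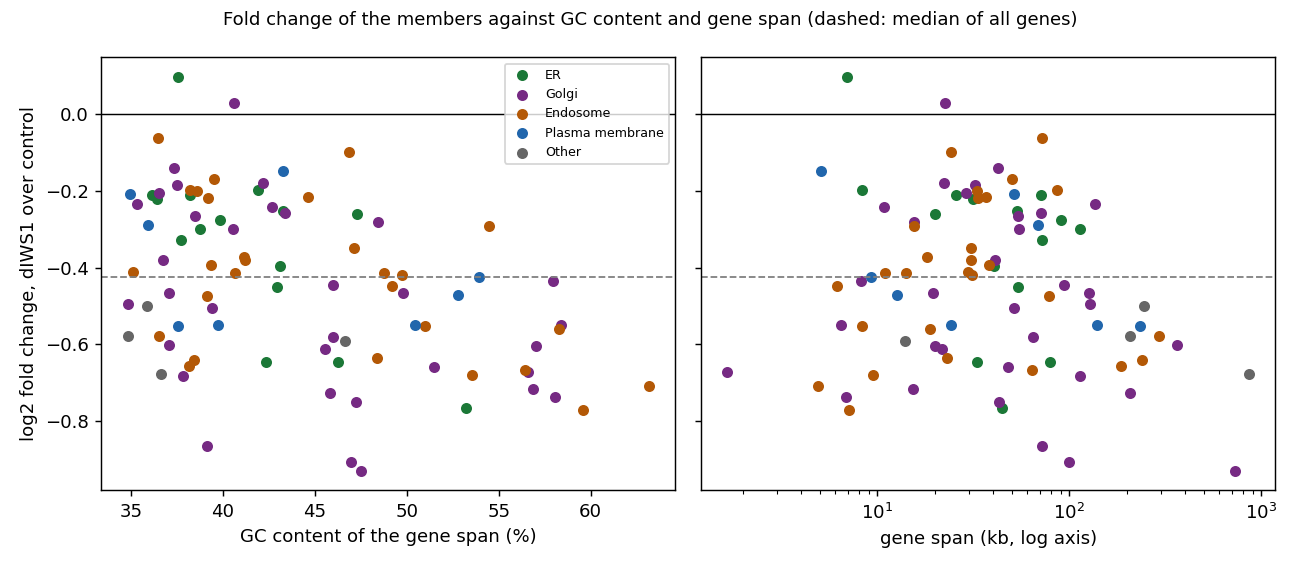
Log2 fold change (y axis, dIWS1 over control) of the 88 genes against the GC content of the gene span (left, %) and its length (right, kb, log axis), 1 point per gene coloured by site, with the median of all genes dashed. All 18 genes right of 50% GC lie at or below −0.29 (VPS4A), and the lengths show no single slope.

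Gene length showed no steady trend. The 13 genes under 10 kb had a median log2 fold change of −0.55 (10 lower), the 19 of 10 to 25 kb −0.41 (14 lower), the 28 of 25 to 65 kb −0.36 (15 lower) and the 28 over 65 kb −0.52 (20 lower). The medians of all genes in these classes were −0.49, −0.39, −0.35 and −0.49, with 59.3%, 64.2%, 57.6% and 78.1% lower. Over 65 kb the share among the 88 was 71.4%, below that of all genes, although the median was slightly lower (−0.52 against −0.49). Depth differed by class too: over all genes the median control reads were 146 under 10 kb and 5290 over 65 kb. The shortest of the 88, TRAPPC1 with 1.66 kb, and the longest, VPS13B with 864 kb, were alike at −0.67 and −0.68. These 2 were picked for their length.

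Other genes of the same complexes and steps have symbols outside the patterns. Of 64 such genes listed, 53 had reads: 33 were lower (62.3%, against 64.5% of all genes), none was higher, also at an unadjusted p under 0.05, and the median log2 fold change was −0.37. These counts are from the limma voom fit with the spike-in scaling. They include the GTPases and cage of COPII, the rest of ESCRT, sorting nexins, COMMD proteins, clathrin, and ARF GTPases. Against the median gene 2 of the 53 were above, where 3.01% of all genes were. CHMP2B, an ESCRT-III subunit, lay at 0.41 (adjusted p = 0.0269), and NRBF2, a subunit of the PIK3C3 lipid kinase complex, at 0.47 (adjusted p = 0.0120). CHMP2B had 856 reads in the control column and 792 and 815 in the dIWS1 columns, and NRBF2 979 against 921 and 986, so that for both genes the dIWS1 columns lay on either side of the control after scaling.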

How the data were processed

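The authors aligned TT-seq reads with STAR 2.6.0 to GRCh38 with spike-in sequences, counted unique read pairs per RefSeq gene by strand, left out overlapping genes, kept genes over an RPK of 10, and ran DESeq2 with spike-in size factors. Their deposited table gives each gene a signal, the mean over libraries of the count divided by the size factor, and a log2 ratio of dIWS1 to control. Its other 4 columns, the standard error, statistic, p-value and adjusted p-value of that comparison, were not used.

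The smallest means that were not whole-number sums of smaller ones gave 3 steps, which were then sharpened by least squares. Each mean was searched for whole multiples of these steps. Of 10147 genes, 9615 had 1 solution from the mean alone, 519 were chosen among several by the log2 ratio, 11 had a mean of 0, and SMYD3 and RNU6-9 were left out, which leaves 10134. Of the 88 genes, 82 were solved from the mean alone. The log2 ratio was used to choose for the other 6, among them TRAPPC9, AP3B1 and COG5. The column entering 2 times is the denominator of the deposited ratio and was taken as the control, from the direction stated in the study. Columns carry no replicate number. The size factors were 1.01 for the control and 0.993 and 0.919 for dIWS1 columns 1 and 2.

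Genes were tested with limma 3.58.1 (voom, empirical Bayes, R 4.3.3), with Benjamini-Hochberg adjustment over all 10134 genes and a threshold of 0.05, and again with the median gene at 0. The planned choice between a count test and this one fell on limma because the table holds no counts per library. The scripts were tested on simulated data. Promoters, spans and GC content came from RefSeq GRCh38.p14. Spans were matched by symbol, synonym or gene number for 10098 genes, and promoters by symbol. Other software was Python 3.11.15, numpy 2.4.6, pandas 2.3.3 and matplotlib 3.10.9. Named genes were the lowest and highest of each complex, all called against the median gene, all paralog sets, and COPB1 with COPB2. The other called genes were named only where few. Alternatives were other thresholds, a minimum mean, limma-trend, other scalings, the control entered 2 times, and each dIWS1 column left out. The genes and lists were chosen with earlier results of these data known.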

Additional observations from a re-analysis of the deposited data

How the results depend on the processing

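The number of genes called lower was 59, and it was 51 at an adjusted p under 0.01, 57 of 86 with a minimum mean of 100, 54 with limma-trend and either pseudocount, and 74 with the control column entered 2 times. Among the named genes, limma-trend with a pseudocount of 0.5 lost the calls of SEC22A, VPS37B and VPS4A. The number called lower was 35 with a log2 change of at least 0.5. Scaling by total reads in genes, which takes away the common fall, moved it to 13, with 13 higher in place of 0. The counts against the median gene (3 below, 2 above) varied more: 0 and 1 at an adjusted p under 0.01 and under limma-trend with either pseudocount, 1 and 1 with a log2 change of at least 0.5, 13 and 11 with the control entered 2 times (all genes 1584 and 1134), 13 and 13 under total reads (all genes 1080 and 1475), and 13 and 10 (all genes 1293 and 1300) with each dIWS1 column centred on its own median gene, an alternative chosen after seeing the data. From the mean of both dIWS1 columns over the control, the median log2 ratios of the ER, Golgi and endosome genes and of all 88 were −0.27, −0.49, −0.41 and −0.44. They were 0.17, −0.054, 0.027 and 0.0043 under total reads and 0.15, −0.072, 0.010 and −0.015 centred on the median gene. Leaving out 1 dIWS1 column gave −0.35 to −0.20 for the ER, −0.55 to −0.42 for the Golgi, −0.48 to −0.36 for the endosome and −0.50 to −0.37 for all 88. Of the 48 named genes, 23 changed direction under total reads, where the log2 fold changes were AP1S2 0.24, AP2M1 0.015, AP3M1 0.060, AP3M2 0.070, AP3S1 0.38, COG6 0.21, COPB1 0.30, COPB2 0.26, EXOC8 0.29, SEC22A 0.11, SEC22B 0.23, SEC23A 0.23, SEC24D 0.14, SEC61A1 0.18, SEC61A2 0.046, VPS26A 0.27, VPS33A 0.22, VPS33B 0.34, VPS37A 0.24, VPS37B 0.093, VPS37C 0.021, VPS4A 0.15 and VPS4B 0.22. AP3S1 turned to 0.011 without column 1 and TRAPPC6B to −0.012 without column 2. Numbers of calls could not be had with a dIWS1 column left out, because no residual degrees of freedom remain. No paired analysis was possible because the recovered columns carry no replicate numbers and the control is a single column. The cause of these changes was not tested, and depth limits the genes with few reads most: AP4M1 and TRAPPC5 had means under 100.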
